A study of Mus musculus with 6 samples.

Results

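Mst1r, Slpi and Extl1 are 3 mouse genes that the study picked out for closer work in liver tumors. Their loci were taken here as every region of the deposited methylation table listed for one of the 3 genes, together with every region within 100 kb of the transcription start site (TSS) that the table gives for them, with no limit on the size of the difference. This gave 8 of 14176 regions, 1 at Mst1r, 4 at Slpi and 3 at Extl1, of which 4 were listed for the 3 genes themselves. The study shortlisted genes on the methylation difference near the TSS and on an opposite change of their mRNA in the same mouse liver study. A shortlisted gene also had to appear in a literature search for cancer. From that shortlist it picked these genes on the number of changed cytosines and, for Mst1r and Slpi, on a large rise of mRNA. The values of these 3 regions are therefore given as a description and support nothing.

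Reduced representation bisulfite sequencing (RRBS) was used, in which DNA is cut at CCGG by the enzyme MspI and bisulfite turns unmethylated cytosine into a base read as T. Normal liver of male C3H/HeN mice (3 samples) was set against liver tumors with mutated Ha-ras (3 samples), all at 74 weeks and from an inbred strain prone to liver tumors. All mice were F2 offspring of an untreated control group in an arsenic exposure project, and the sources used here do not say whether a tumor and a normal liver shared an animal. The deposited table gave 1 difference per region (tumor minus normal, in percentage points of methylation) and no value per sample, so no spread between animals and no test of a difference could be computed. The read depth behind each value is not known here beyond the minimum coverage that the authors set. A region counts CpG cytosines on both strands apart, and a differentially methylated cytosine (DMC) is one that passed the authors' test. In whole tissue, a change within cells of a type and a change in the share of that type cannot be told apart.

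In mammals, methyl groups sit mainly on cytosines that precede a guanine, and methylation around a start site is often, but not always, low in genes that are transcribed. Mst1r encodes RON, a receptor tyrosine kinase at the cell surface that binds macrophage-stimulating protein (MSP), a protein made mainly by hepatocytes from the gene Mst1. Slpi encodes a small secreted protein that inhibits neutrophil elastase and cathepsin G. Extl1 encodes a member of the exostosin family, glycosyltransferases that build heparan sulfate chains.

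The sequences of the 3 regions nearest to the TSS, called promoter DMRs (differentially methylated regions), are shown because each difference below is a mean over the CpG cytosines they hold. They were read from the reference genome GRCm38 (C57BL/6J, not the C3H/HeN strain studied) on the strand of the gene, 5′ to 3′, with each CpG in capitals. For Mst1r (chr9:107908135-107908434, plus strand) and Extl1 (chr4:134371100-134371399, minus strand) the 300 bases with the most CpG dinucleotides are given, and for Slpi (chr2:164355521-164355812, minus strand) the whole region. The last sequence is the other region listed for Slpi (chr2:164377834-164377891, minus strand), which lies upstream of the gene.
Mst1r: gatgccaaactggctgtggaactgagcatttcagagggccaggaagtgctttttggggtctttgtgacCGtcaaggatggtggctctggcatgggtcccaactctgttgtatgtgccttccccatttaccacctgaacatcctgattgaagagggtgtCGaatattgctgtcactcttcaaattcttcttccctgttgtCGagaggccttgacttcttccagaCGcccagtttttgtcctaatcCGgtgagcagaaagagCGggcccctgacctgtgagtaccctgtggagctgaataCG
Slpi: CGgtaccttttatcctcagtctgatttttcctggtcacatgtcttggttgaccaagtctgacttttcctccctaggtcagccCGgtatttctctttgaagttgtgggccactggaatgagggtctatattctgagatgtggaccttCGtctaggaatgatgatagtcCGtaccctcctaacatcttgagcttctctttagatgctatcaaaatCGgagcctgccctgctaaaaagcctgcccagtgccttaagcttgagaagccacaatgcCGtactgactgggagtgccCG
Extl1: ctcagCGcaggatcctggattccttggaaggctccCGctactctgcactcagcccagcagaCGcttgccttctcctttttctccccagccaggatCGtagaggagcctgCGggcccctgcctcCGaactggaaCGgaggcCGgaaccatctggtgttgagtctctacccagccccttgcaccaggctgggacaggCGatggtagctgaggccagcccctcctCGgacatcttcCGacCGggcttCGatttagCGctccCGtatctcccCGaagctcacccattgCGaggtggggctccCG
Slpi, upstream: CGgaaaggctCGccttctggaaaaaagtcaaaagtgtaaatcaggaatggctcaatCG
The stretches of Mst1r and Slpi each hold 7 CpG dinucleotides, and that of Extl1 holds 18 in 300 bases. The upstream region of Slpi holds 3 in 58 bases.

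The Mst1r locus had a single listed region, and it had lost methylation in the tumors. The region (GRCm38 chr9:107908082-107908516, 435 bp) had a difference of -46.3 points, and all 13 of its measured CpG cytosines were DMCs. Its near end lay 1193 bp downstream of the TSS, with 299 bp in coding exon 1 of 19 and the other 136 bp in intron 1. The coding part covers codons 313 to 412 of 1378, within the extracellular portion of the receptor. The reference has 9 CpG dinucleotides in the region, hence 18 cytosines, of which 13 (72.2%) were measured. By absolute difference it ranked 303 among the 14176 regions, and 135 among the 12059 regions that lost methylation. It held more cytosines than 91.5% of regions and was longer than 92.2%.

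At Slpi, the region nearest to the TSS had also lost methylation, by a smaller amount. This region (GRCm38 chr2:164355521-164355812, 292 bp) had a difference of -33.8 points, with 9 of 12 cytosines (75%) called DMCs. Starting 695 bp downstream of the TSS, it ran through the end of intron 1 into exon 2 of 4, with 92 bp coding for codons 29 to 59 of 131. All but 2 of the 14 cytosines that the reference allows there were measured (85.7%). It ranked 1848 by absolute difference and 1275 among the 12059 losses, so many losses in the table were larger.

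Another region listed for Slpi, far upstream, had lost a similar amount, slightly more than the promoter DMR. This region (GRCm38 chr2:164377834-164377891, 58 bp) had a difference of -34.6 points, and all 4 of its measured cytosines were DMCs. It ended 21327 bp upstream of the Slpi TSS, in sequence that RefSeq leaves between genes. The GENCODE annotation (release M21) has a longer Slpi transcript, of 3 exons, that starts 32588 bp upstream of the listed TSS, and the region lies in an intron of it.

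Extl1 was the one gene of the 3 whose promoter DMR had gained methylation. The region (GRCm38 chr4:134371100-134371620, 521 bp) had a difference of +48.1 points, with 44 of 46 cytosines (95.7%) called DMCs. With its near end 927 bp downstream of the TSS, it lay wholly in the coding part of exon 1 of 11, covering codons 33 to 207 of 669. The reference holds 27 CpG dinucleotides there, and 46 of their 54 cytosines (85.2%) were measured. The difference ranked 237 in absolute size and 133 among the 2117 gains. Only 114 of the 14176 regions had at least as many cytosines, the Extl1 region included.

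**Figure D1:**
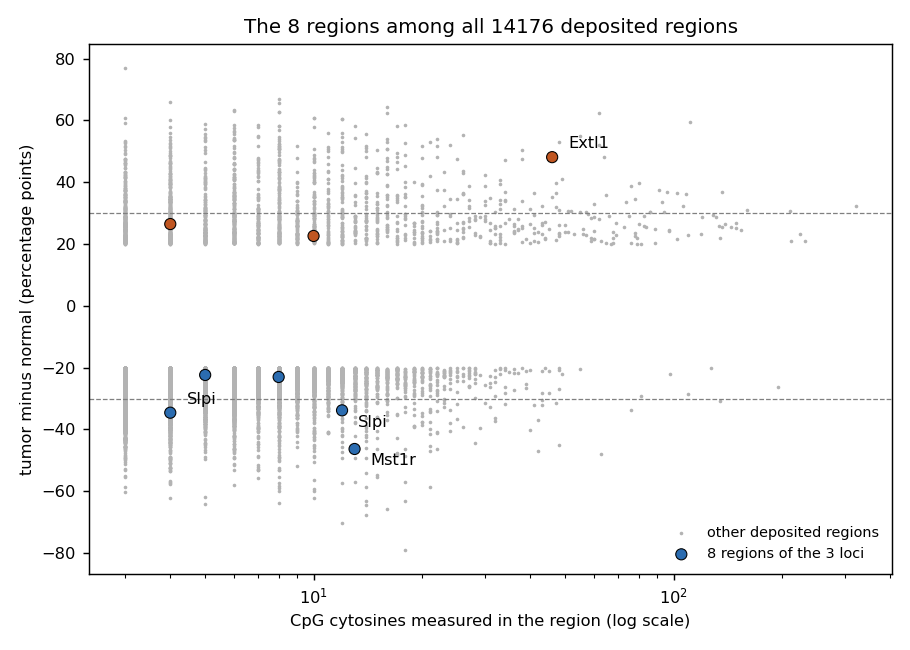
Each point is 1 of the 14176 deposited regions, by the number of CpG cytosines measured (horizontal, log scale) and the difference in methylation (vertical, percentage points, tumor minus normal). The 8 regions of the 3 loci are filled in blue (losses) or orange (gains) with a black outline. Dashed lines mark 30 points, and the Extl1 region stands at 46 cytosines and +48.1 points.

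Against the whole table, the median region had 5 cytosines, 3 DMCs, a span of 158 bp and a difference of -23.9 points, and 53.5% of all measured cytosines were DMCs. The study set a promoter DMR at 30 points or more with an edge within 2000 bp of a TSS, which gave 225 regions, 133 losses and 92 gains. Mst1r ranked 18 among the 133 losses by difference and 21 by number of cytosines. Slpi ranked 78 and 23, its difference being close to the median promoter loss of -34.7 points. Extl1 ranked 17 among the 92 gains by difference and 12 by cytosines, where the median gain was +36.1 points with 11 cytosines. Of the 225 promoter DMRs, 36 had at least 20 cytosines and 15 had at least as many as Extl1.

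The promoter DMRs differed from each other in base composition. The Extl1 region was the richest in CpG, with 62.6% GC and a ratio of observed to expected CpG of 0.535. The Slpi region had 48.6% GC and a ratio of 0.407, and that of Mst1r 53.6% and 0.289. Neighbouring CpG dinucleotides were a median of 14 bp apart at Extl1 (4 to 82 bp), 39.5 bp at Mst1r (16 to 121 bp) and 52 bp at Slpi (19 to 82 bp). An island of 367 bp, by a minimum of 200 bp, 50% GC and a ratio of 0.6, overlapped 246 bp (47.2%) of the Extl1 region, and neither of the other promoter DMRs touched one. With a minimum of 500 bp, 55% GC and a ratio of 0.65, no island overlapped any of the 3. The paper describes these DMRs as lying outside CpG islands and does not state its island definition. The overlap at Extl1 thus rests on the looser definition used here.

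The edges of the promoter DMRs followed the cutting sites of MspI. All 3 began and ended at a CpG inside CCGG, as did 41.4% of the 14176 regions, while 89.0% had such a site at 1 edge or more. The Mst1r region was made of fragments of 297 and 136 bp, the Slpi region of 82 and 208 bp, and the Extl1 region of 200, 161, 97 and 61 bp. At Slpi the start of the region was also the nearest site downstream of the TSS, at 694 bp, and the nearest upstream lay 330 bp before it. At Mst1r the nearest site downstream was at 420 bp and the nearest upstream at 625 bp before the TSS. At Extl1 these were 29 bp downstream and 192 bp upstream. Methylation between such sites was read only where a sequenced fragment reached, so the true limits of each change were not measured.

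**Figure D2:**
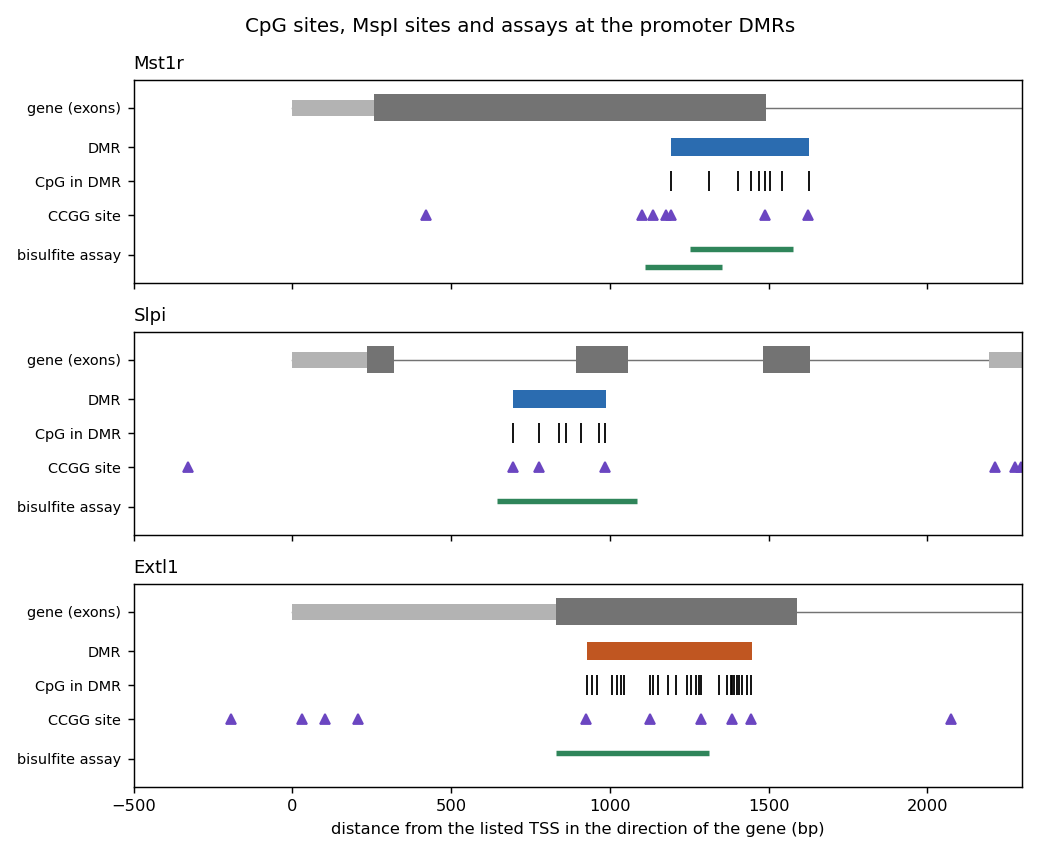
Map of the 3 genes from 500 bp before to 2300 bp after the listed TSS (horizontal axis in bp, in the direction of the gene), with exons (dark where coding), the promoter DMR (blue for loss, orange for gain), its CpG dinucleotides, CCGG sites and the spans of the bisulfite assays. The regions start 1193, 695 and 927 bp downstream of the TSS at Mst1r, Slpi and Extl1.

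None of the 3 promoters themselves was covered by a listed region. In the 300 bases around the start (250 before to 50 after, RefSeq, GRCm38.p6), Mst1r has 8 CpG dinucleotides, Slpi 2 and Extl1 9, against a median of 7 over 32851 promoters. Mst1r and Slpi have no CCGG there and Extl1 has 2, while 52.8% of all promoters hold one, so by the reference no MspI fragment ends inside the window at Mst1r or Slpi. A region is listed only where the difference reached 20 points, so a promoter without one was not covered or did not pass the authors' criteria, and these cannot be told apart here.

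Other start sites are annotated for all 3 genes, some of them nearer to the DMR than the listed one. A RefSeq model of Mst1r predicted by computation starts 1430 bp downstream of the listed TSS, inside the DMR. The curated short form of Mst1r starts at 8114 bp, which is 6487 bp beyond the region, and its own 300-base promoter has 9 CpG dinucleotides, no CCGG and no listed region. A predicted Extl1 model starts at 1502 bp, 55 bp past the DMR. A GENCODE transcript of Slpi starts 440 bp downstream of the listed TSS, still ahead of the DMR.

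Short motifs were counted on both strands in the 300 bp centred on each promoter DMR. CpG occurred 7, 7 and 11 times at Mst1r, Slpi and Extl1, against a median of 6 over all regions. At least as many were held by 43.2%, 43.2% and 10.7% of regions. GCGTG, the core bound by the aryl hydrocarbon receptor, the E-box CACGTG, the GC box GGGCGG and the NF-kappaB consensus were not found in these windows or in the DMRs. The consensus searched was GGGRNNYYCC, with R for A or G, Y for C or T and N for any base. Of all 14176 windows, 20.6% held GCGTG, 5.14% held CACGTG, 8.62% held GGGCGG and 8.53% the NF-kappaB consensus. The absence of these letters says nothing about binding of the factors. The study reports a putative NF-kappaB sequence in the Mst1r DMR and a shorter receptor core, CGTG, in the Slpi DMR. It used other patterns for these, from a database and the literature, which the motif counts here did not include. In the Slpi DMR sequence printed above, from C57BL/6J, CGTG does not occur on either strand. The sequence of C3H/HeN was not read here. CCGG was counted 1, 3 and 2 times in the same windows, and 98.0% of all windows held it.

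The study's primers for bisulfite sequencing were matched to the converted reference to show which CpG sites its assays read. They are given 5′ to 3′, with capitals at the bases that bisulfite conversion makes different from the genome.
Mst1r BS-1 forward: aaaTtggTtgtggaaTtgagTattt
Mst1r BS-1 reverse: caAAccctttcaAaAataAcaaAAa
Mst1r BS-2 forward: TtgtagagTTagagattggtgaTtaT
Mst1r BS-2 reverse: acaAaAttAAAacccatAccaAaAc
Slpi BS forward: tttgtgagatTttgTttagTTTtgag
Slpi BS reverse: tcccctctctAttttctctActAActc
Extl1 BS forward: atgTtgtggagaagaaagtTTttTt
Extl1 BS reverse: taAaAactcaacaccaAatAAttcc
The Slpi assay spans 440 bp, from 646 to 1085 bp after the TSS, and covers the whole DMR with its 7 CpG dinucleotides. The Extl1 assay spans 485 bp, from 829 to 1313 bp, and covers 17 of the 27 CpG dinucleotides and 74.3% of the DMR. At Mst1r, BS-1 spans 326 bp (1252 to 1577 bp) and covers 7 of the 9, BS-2 spans 241 bp (1112 to 1352 bp) and covers 2, and together they cover 8. The last CpG of the Mst1r region, at 1626 bp, lies in neither. No values of these assays are used here.

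The Slpi and Extl1 windows held both losses and gains, while the Mst1r window held a loss only. Of the 8 regions, 5 had lost methylation (62.5%, exact 95% interval 24.5 to 91.5%, counting error only) and 3 had gained it, where 85.1% of the 14176 regions had lost it. The 8 include the promoter DMRs of the 3 genes, which the study chose partly on these differences. Nothing is therefore read from this share or its interval. Without the regions of the 3 genes, 50% were losses. The mean difference was -7.87 points with an SD of 35.0 over the 8 regions, which were not replicates, and it turned to +10.8 points when each region was weighted by its cytosines and to +0.920 without the regions of the 3 genes. They held 102 measured cytosines, of which 82 were DMCs. A difference of at least 30 points was seen in 4 of the 8, against 23.5% of all regions, in 3 of the losses (18.0% of all regions were losses of that size) and in 1 gain (5.57%). All 4 were the regions listed for the 3 chosen genes, so nothing is read from that count. The other 4, listed for neighbouring genes, had differences between -23.0 and +26.5 points.

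**Figure D3:**
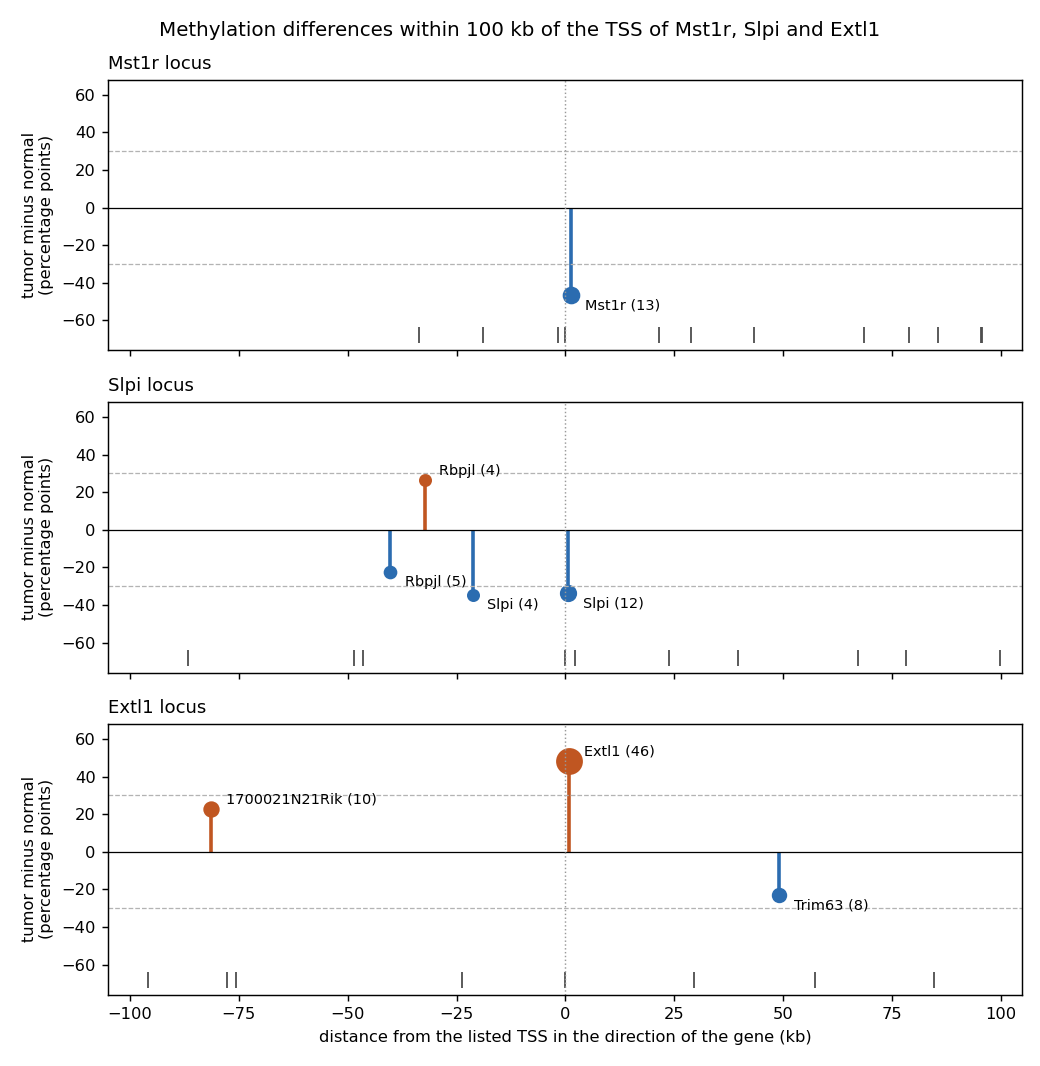
Differences in methylation (vertical, percentage points, tumor minus normal) of the regions within 100 kb of each TSS, by distance in the direction of the gene (horizontal, kb), as blue losses and orange gains with the listed gene and its number of CpG cytosines, which also sets the point's size. Grey ticks mark starts of annotated genes and dashed lines 30 points, and apart from the promoter DMRs only the upstream Slpi region at -34.6 points passes them.

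The Slpi window held a gain between losses. The gain (chr2:164388820-164388872, 53 bp) was +26.5 points with 3 of 4 cytosines called DMCs, and the table lists it for Rbpjl, a relative of the Notch effector Rbpj that is known from the pancreas, 14322 bp from that TSS. It lies 32313 bp upstream of the listed Slpi TSS, yet inside exon 1 of the long GENCODE Slpi transcript, 223 bp downstream of that start. Next to it, a region also listed for Rbpjl (chr2:164396692-164396755, 64 bp) differed by -22.4 points with 2 of 5 DMCs. It overlaps a coding exon of Matn4, which encodes the matrix protein matrilin-4, so the listed gene is the one with the nearest TSS and not the one it lies in. In order from upstream, the 4 regions of the window thus read -22.4, +26.5, -34.6 and -33.8 points.

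Among the other genes of the Slpi window were Sdc4, which encodes the heparan sulfate proteoglycan syndecan-4, and the seminal vesicle protein genes Svs3a, Svs3b, Svs4, Svs5 and Svs6. None of these had a listed region. Upstream, the nearest gene start was that of Rbpjl, 46574 bp away, and downstream that of Svs5, 23742 bp away, apart from the miRNA gene Mir7678 inside Slpi. The window has 10 annotated genes, 9 of them protein-coding.

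In the Extl1 window, a gain and a loss at neighbouring genes were smaller than the difference at Extl1 itself. A region of 117 bp (chr4:134453884-134454000), 81337 bp upstream and listed for the lncRNA gene 1700021N21Rik at 3713 bp, differed by +22.6 points with 3 of 10 DMCs. A region of 158 bp (chr4:134323291-134323448), 49099 bp downstream in an intron of Trim63, differed by -23.0 points with 4 of 8 DMCs. Trim63 encodes MuRF1, a ubiquitin ligase known from muscle. The nearest gene starts were those of Pafah2, a phospholipase that breaks down platelet-activating factor, 23773 bp upstream, and of the zinc transporter gene Slc30a2, 29501 bp downstream, and neither had a listed region.

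The Mst1r window was crowded with genes but held no other region. Of its 12 annotated genes, 10 are protein-coding, and of these Mst1r alone had a listed region. The nearest starts were those of the pseudogene Gm23856, 1660 bp upstream, and of Actl11, 21580 bp downstream. Mon1a, Rbm6, Camkv, Traip, Uba7, Inka1, Cdhr4 and Ip6k1 also lie within 100 kb.

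The number of CCGG sites sets how much RRBS can read. The windows of 200 kb held 248 such sites at Mst1r, 186 at Slpi and 325 at Extl1, against a median of 162 (quartiles 112 and 229) around 21774 protein-coding genes. Mst1r had more than 79.7% of genes, Slpi 60.2% and Extl1 93.0%. The median gene had 1 listed region in its window and 60.5% had at least 1. At least as many regions as at Slpi were found for 9.18% of genes, and at least as many as at Extl1 for 17.6%. Slpi, with the fewest CCGG sites of the 3, thus had the most regions.

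The farthest regions inside the 100 kb limit lay at -40185 bp for Slpi (-22.4 points), at -81337 bp for Extl1 (+22.6 points) and, for Mst1r, whose window held only the promoter DMR, at 1193 bp (-46.3 points). The nearest outside were a region listed for Amigo3 at 147184 bp from Mst1r (+43.0 points, 12 of 15 DMCs), one for Wfdc2 at -177323 bp from Slpi (-28.9 points, 4 of 6 DMCs) and one for Mtfr1l at -163813 bp from Extl1 (-21.8 points, 3 of 11 DMCs). Wfdc2, like Slpi, encodes a protein with whey acidic protein domains. Mst1, the gene of the ligand of RON, starts 173520 bp from the Mst1r TSS on the same chromosome. No region was listed for Mst1, and the nearest to it was that of Amigo3, 26227 bp away.

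The wider pathways of the 3 genes were described from lists of genes by role, where each region counts for the gene with the nearest listed TSS, which can be far away. For comparison, 24.4% of 21774 protein-coding genes had a listed region, and 85.1% of all regions were losses. In the list of MSP and RON signalling, 10 of 28 genes had a region, with 10 losses (62.5%) and 6 gains and a median of -21.6 points, against -23.9 over all regions. At 30 points or more there were 4 losses and 3 gains. Beside Mst1r, the losses were listed for Hgfac, whose product activates the precursors of hepatocyte growth factor (-52.6 points, 8 of 8 DMCs, 2378 bp from the TSS), for Hgf, the growth factor related to MSP (-31.7 points, 376084 bp), and for the kinase gene Src (-31.2 points, 42336 bp). The gains were listed for Plcg1, which encodes a phospholipase C downstream of receptor tyrosine kinases (+38.1 points at 13263 bp and +44.6 points at 9676 bp), and for Pik3r1, a regulatory subunit of phosphoinositide 3-kinase (+34.5 points, 148867 bp).

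In the list of whey acidic protein genes, elastases and their inhibitors, 14 of 43 genes had a region, with 16 losses (80%) and 4 gains and a median of -28.5 points. The 8 at 30 points or more were 7 losses and 1 gain. Apart from the pair at Slpi, 4 were listed for Cela1, a chymotrypsin-like elastase. Those at Cela1 were -37.9 and -31.2 points in the gene itself, and -58.4 and +35.1 points in the neighbouring gene Galnt6 (8604 and 15998 bp from the Cela1 TSS), which makes mucin-type glycans. Serpina1b, a gene of the liver-made elastase inhibitor alpha-1-antitrypsin, had -35.6 points at 638 bp from its TSS, and Plscr1, which encodes a scramblase that binds Slpi in human, had -49.5 points at 3523 bp.

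In the list of exostosins and heparan sulfate synthesis, 19 of 34 genes had a region, with 48 losses (77.4%, beside 85.1% of all regions) and 14 gains and a median of -23.5 points. At 30 points or more there were 14 losses and 6 gains at 13 genes. The gains were listed for Extl1, for the sulfotransferase gene Hs6st1 (+45.9, +45.1 and +34.4 points, 20689 to 37699 bp from its TSS), for Papss2, whose product makes the sulfate donor (+45.8 points, 31185 bp), and for Sulf2, which encodes an enzyme that removes sulfate groups (+41.7 points, 56938 bp). The losses were listed for Hs3st1, Hs3st3a1, Hs3st4, Hs3st5, Hs6st3, Ndst3 and Ndst4, which encode sulfotransferases, for Xylt1, which starts the chain, and for Sulf1. These losses ranged from -52.7 points in a region 999811 bp from the TSS of Hs3st1 to -30.1 points in one 231973 bp from that of Hs3st4, and the nearest to a TSS was 15513 bp away, at Hs3st4 (-31.2 points). No other exostosin gene than Extl1 passed 30 points. In the 3 lists, 43.8%, 40.0% and 32.3% of regions reached 30 points, beside 23.5% of all regions. These shares count the promoter DMRs of Mst1r, Slpi and Extl1, which the study selected on their differences. The second list also counts Cela1, another gene on the study's shortlist. The 3 genes and the lists were chosen with earlier results of these data known, so nothing is read from these shares.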

How the data were processed

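Genomic DNA of 3 normal livers and 3 tumors was digested with MspI and sequenced after bisulfite conversion. Adapters were removed with Trim Galore, and Bismark placed read pairs on mm10 at a unique best hit. Per-cytosine methylation was tabulated in methylKit with strands apart, and DMCs were called by logistic regression at q below 0.01, coverage of 10 reads or more and a difference of 25 points or more. Regions came from eDMR, and nearest RefSeq TSSs from bedtools 2.25.0 (submitters' processing notes); the other tool versions are not stated in the labels or methods. The authors' deposited table holds, per region, the mean difference in percentage points (a percent methylation difference), counts of cytosines and of DMCs, coordinates and the distance to the listed TSS. All regions differed by at least 20 points, with 3 or more cytosines and 1 or more DMCs. Values were pooled over samples, so depth per sample, replicate error and tests across samples were not computed.

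Starts fell in a CpG for 13.9% of regions as given and for 100% after adding 1, as did 100% of ends, on GRCm38 (the build mm10), so 1 was added to starts. Distances to a TSS are from the nearest base of a region. Regions, neighbouring genes (RefSeq and GENCODE M21), sequence composition, islands, 6 motifs and primer positions were computed in Python 3.11.15 with pandas 2.3.3, numpy 2.4.6, scipy 1.17.1 and matplotlib 3.10.9. The functions were tested on simulated sequence. The share of losses carries an exact (Clopper-Pearson) 95% interval. Named were all regions of the 3 genes and windows, the nearest gene on each side, regions at the 100 kb limit, and list genes with 30 points or more. The 3 genes and 3 gene lists were chosen with earlier results of these data known. Alternatives varied the window (50, 250 and 500 kb), the difference, cytosine and DMC minimums, weighting, island definition, motif window, TSS and list assignment. The expression arrays, cell line experiments and bisulfite clones of the study were not analysed here.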

Additional observations from a re-analysis of the deposited data

How the results depend on the processing

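Counts of regions followed the window and the minimum difference, as they must by construction. The 8 regions became 17 within 250 kb and 34 within 500 kb, 5 at 25 points or more, 4 at 30 points or more, and 4 with regions of the 3 genes left out. For Mst1r, the count went from 1 to 3 within 250 kb and 10 within 500 kb. For Slpi, it went from 4 to 8 and 12, and to 2 at 30 points or more. For Extl1, it went from 3 to 6 and 12, and to 1 at 30 points or more. The island overlap of the Extl1 region fell from 47.2% to 0 under the stricter definition. The MSP and RON list fell from 16 to 7 regions and the whey acidic protein and elastase list from 20 to 8 at 30 points or more, and the exostosin list from 62 to 32 at 25 points or more and to 20 at 30 points or more. The mean over the windows, -7.87 points, reversed in sign when weighted by cytosines (+10.8, where the 46 cytosines of Extl1 weigh most) and without the 3 genes (+0.920), so its direction depends on these choices. It was -12.2 points within 50 kb, -14.3 within 500 kb and -16.7 at 30 points or more. Of 56 alternative values, 21 moved, 2 reversed and 33 did neither, taking a factor of 1.5 for counts and means and the exact interval for shares. TSS distances were equal, as was the number of motif kinds present, 2 at each promoter DMR. Motif counts themselves differed between the 300 bp window and the region. CpG at Extl1 was counted 11 times in the window and 27 in the region, and CCGG at Slpi 3 times and 1. No paired analysis was possible because the table holds no value per sample, and for the same reason no replicate could be left out. Depth behind a region is not known, so the ranks given are places in the table, with no error, and neighbouring ranks may not differ.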

Other observations

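Between 100 and 500 kb from the 3 start sites lay 26 further regions. Of these, 8 had a difference of 30 points or more, beside 23.5% of all regions, and nothing is read from that count. At -336463 bp from the Mst1r TSS, a region listed for Hyal2, which encodes a hyaluronidase, differed by -46.5 points with 21 of 22 cytosines called DMCs. The Mst1r promoter DMR, at -46.3 points, had 13 cytosines. The other region of that size around Mst1r was the gain at Amigo3.

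Around Slpi, a region of 618 bp listed for the sorting nexin gene Snx21, at -435133 bp, differed by +41.0 points with 44 of 49 DMCs. One listed for the potassium channel gene Kcns1, at 184383 bp, differed by +32.1 points with 6 of 11 DMCs. A region listed for Ywhab, which encodes a 14-3-3 protein, differed by -40.6 points with 3 of 3 DMCs.

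Around Extl1, all 9 regions between 100 and 500 kb away were losses, as were 85.1% of all regions. They included a region listed for Sh3bgrl3, 248695 bp downstream, at -49.4 points with 5 of 5 DMCs. These regions were named after their values were seen, and no test was made.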
